A study of Mus musculus with 6 samples.

Results

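The genes described here build the nuclear lamina or bend DNA inside the nucleus. They were the lamin genes Lmna, Lmnb1 and Lmnb2, the inner nuclear membrane genes Lbr, Tmpo and Emd, and the HMG-box genes Hmgb1 and Hmgb2. Every probe that the platform annotation gives to these 8 genes was taken, which was 20 of the 45281 probes of the array. Of these, 15 probes of 7 genes had a detection p under 0.05 on all 6 arrays and were tested among the 14091 probes that passed the same filter. No Hmgb1 probe was among them. RAW 264.7 is a mouse leukemic monocyte macrophage line, and the study asked which of its transcripts change with mica fine particles (MFP), milled particles of an aluminosilicate mineral. Cells in RPMI with 2% FBS received 100 µg/mL MFP, and their total RNA at 0, 12 and 48 h was read on Illumina Mouse WG-6 v2.0 arrays, 2 per time point. The labels give the same dose at 0 h, while a legend of the study calls those cells nontreated, and the 0 h arrays served as the control. All changes are therefore against the start of the incubation, and without particle-free cultures at 12 h and 48 h, MFP and time in culture cannot be told apart.

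Lamins are intermediate filament proteins that form a meshwork under the inner nuclear membrane. LBR, emerin and the membrane-bound LAP2 proteins made from Tmpo sit at that membrane and tether chromatin to the meshwork. HMGB1 and HMGB2 are abundant chromatin proteins that bend DNA. Low lamin B1 and low HMGB2 are known marks of senescent cells, and HMGB1 released from cells acts as an alarm signal on receptors that macrophages carry.

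The arrays were alike in quality. Between 16176 and 17155 probes were detected per array, and the 2 arrays of a time point correlated with r between 0.994 and 0.995 over the tested probes. Of 10 measured macrophage markers 8 were detected on all arrays, with Fcer1g and Mertk below the limit, against 0 of 4 T cell markers, 0 of 3 B cell markers, 0 of 5 fibroblast markers and 1 of 5 epithelial markers (Cdh1). The summed signal of the macrophage markers, before normalization, was 32964 to 52319 at 0 h, 32956 to 46833 at 12 h and 44367 to 67714 at 48 h. The brightest marker, Lyz2, had a mean signal of 24311 over the 6 arrays, so the sum largely follows that gene. Nothing in the sources used here states that the paired arrays at each time stem from independent cultures. All p-values thus reflect the spread among these arrays alone, which may be technical. In bulk RNA, fewer cells and less RNA per cell cannot be told apart. The values below are log2 signals after quantile normalization, a change is a difference of their means ± SE from limma, and a probe rose or fell where its p, adjusted over all 14091 probes, was under 0.05.

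At 48 h nearly the whole group was lower than at 0 h. Of the 15 tested probes, 14 fell, 0 rose and 1, a probe of Emd, did not pass, where 25.9% of all tested probes fell and 25% rose. The fall was at least 2-fold for 10 of the 15, against 4.72% of all tested probes. Their median change was -1.10, while that of all probes was -0.00035. At 12 h only 3 of the 15 fell, 1 probe each of Lmna, Lmnb1 and Hmgb2, where 7.82% of all tested probes fell, and the median change of the 15 was -0.29. From 12 h to 48 h 11 of the 15 fell, where 18.9% of all tested probes did. The arrays of the 2 time points did not overlap for 10 of the 15 probes at 12 h against 0 h and for 15 of 15 at 48 h against 0 h, against 57.6% and 74.4% of all tested probes. Probes of one gene share its transcripts, so the 15 are not independent. In the deposited normalized table, whose 2 sets of 3 arrays had been normalized apart, 7 of the 15 passed at 48 h and 0 at 12 h. Of all 14091 tested probes, 796 and 0 passed there. With the array set as a block in that fit, 15 and 10 of the 15 passed, and 5107 of all probes passed at 12 h. By a t-test of each probe after Benjamini-Hochberg adjustment, 4 of the 15 passed at 48 h (Lmnb1, Lmna probes 4 and 5, and Emd probe 1). That test passed 0 at 12 h and 0 between 12 h and 48 h. Of all 14091 probes it passed 2000 at 48 h, 0 at 12 h and 194 between 12 h and 48 h. The study's array methods call genes by fold change, with a limit of 2, and its figure legends add a p under 0.05. The fold change limit alone was met by 0 of the 15 at 12 h, 10 at 48 h and 4 from 12 h to 48 h. Of all 14091 probes, 163, 1373 and 742 met it.

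**Figure D1:**
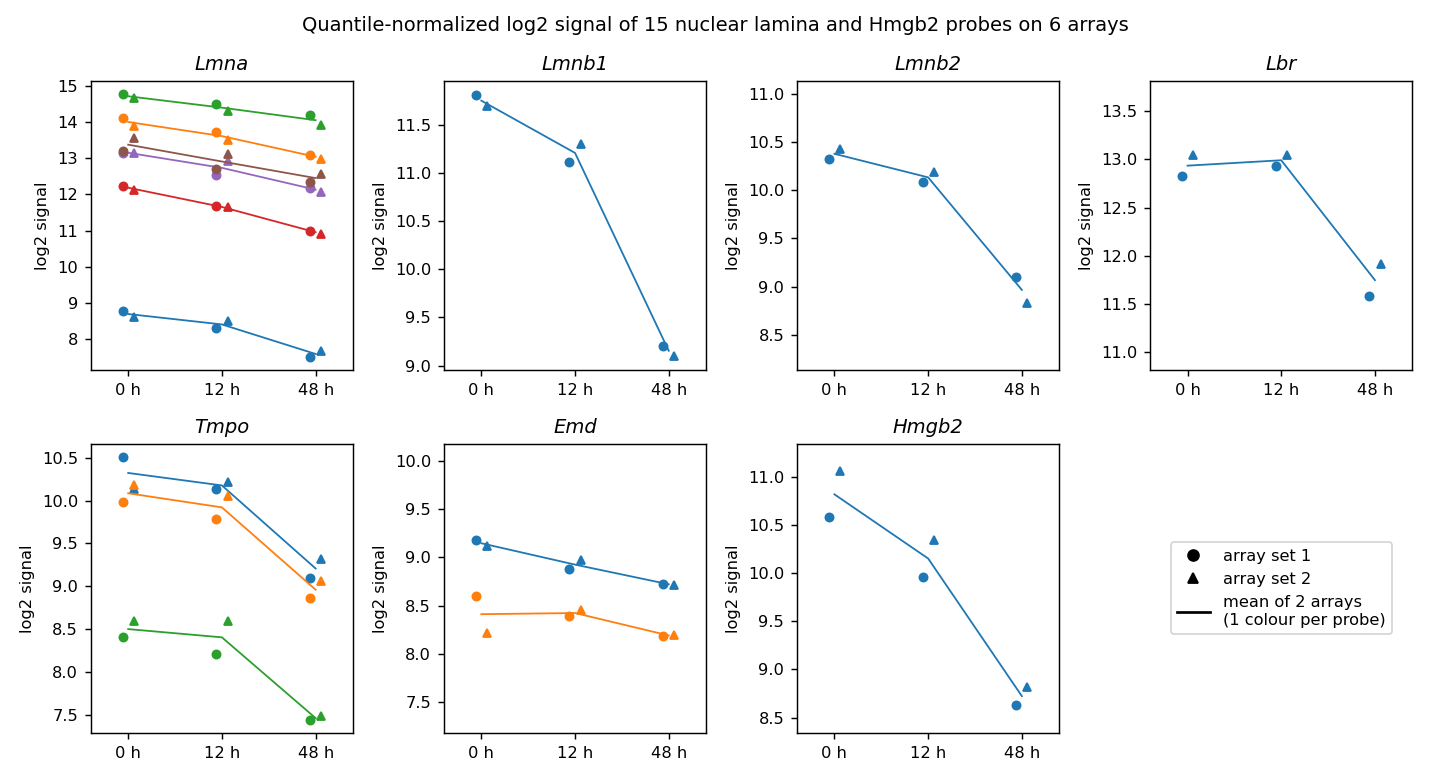
Quantile-normalized log2 signal of each tested probe on the 6 arrays, in 1 panel per gene, with lines through the means of 2 arrays and time points evenly spaced. Circles and triangles mark the 2 sets of 3 arrays in which the deposited normalized table had been normalized, and the vertical ranges differ between panels. Lmnb1 and Hmgb2 drop the most by 48 h, and Lbr is level until 12 h.

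Lmna encodes the A-type lamins, lamin A and lamin C. Its 6 probes, numbered 1 to 6, were all tested, and 2 of them (ILMN_1221646 and ILMN_3121891, probes 1 and 6) are annotated to another RefSeq transcript than the other 4. The brightest, ILMN_1255510 (probe 3), read 14.76 and 14.65 at 0 h, then 14.29 and 14.49 at 12 h, then 13.91 and 14.19 at 48 h. The 3 time points did not overlap, and the highest values were those of 0 h. Its change at 48 h was -0.66 ± 0.12 (adjusted p = 0.00278), the smallest of the 6 probes. The probe with the largest change, ILMN_2597710 (probe 4), read 12.24 and 12.13 at 0 h, then 11.64 and 11.67 at 12 h and finally 10.91 and 10.99 at 48 h. It had already fallen at 12 h, by 0.53 ± 0.090 (adjusted p = 0.00783), and at 48 h its change was -1.23 ± 0.090 (adjusted p = 2.30e-05). That 12 h call was lost without 0 h replicate 1, where the change was -0.47 and the adjusted p = 0.0567, and under scaling to the 75th percentile. All 6 probes fell at 48 h, with changes from -1.23 to -0.66, and the probes of both transcripts lie within that range (-1.10 and -0.92 for probes 1 and 6). Between 12 h and 48 h 4 of the 6 fell, and probes 3 and 6 did not pass (adjusted p = 0.0602 and 0.0631), but passed with the array set as a block in the fit (adjusted p = 0.0017 and 0.00020). The other 5 probes did not pass at 12 h, with changes from -0.46 to -0.29. With that block all 6 passed at 12 h, with adjusted p of 0.0226 or less.

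Lmnb1 encodes lamin B1, a B-type lamin that stays attached to the membrane by its farnesyl group. Its brighter probe, ILMN_2916035, read 11.80 and 11.69 at 0 h, then 11.30 and 11.11 at 12 h and finally 9.10 and 9.21 at 48 h. The arrays of the 3 time points were fully separated, and the 48 h arrays stood far below the rest. The change at 48 h was -2.60 ± 0.10, a signal 6.04-fold lower (adjusted p = 1.86e-06), and only 8 of the 14091 probes fell further. It was -2.60 within the first array set and -2.59 within the second. At 12 h the probe fell by 0.54 ± 0.10 (adjusted p = 0.0124). That early call was lost when 0 h replicate 1, 0 h replicate 2 or 12 h replicate 2 was left out, with changes of -0.49, -0.60 and -0.44, and under scaling to the 75th percentile (adjusted p = 0.0602), while the 48 h call held under every alternative tried.

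The other Lmnb1 probe, ILMN_2720229, was too dim for the test. Its signals were 263 and 231 at 0 h, then 193 and 199.8 at 12 h and finally 108.2 and 108.3 at 48 h. It was detected on all 4 arrays of 0 h and 12 h and on neither array of 48 h, so the last value is only a bound. Set against the lowest detected signal on the 48 h arrays, it was at least 1.91-fold lower at 48 h than at 0 h and at least 1.5-fold lower than at 12 h. Signals here carry the array's background, and a dim probe shows a smaller log2 change than a bright one for the same change in RNA.

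Lmnb2 encodes lamin B2, the other B-type lamin. ILMN_2669404 read 10.32 and 10.43 at 0 h, then 10.18 and 10.08 at 12 h and finally 8.83 and 9.10 at 48 h. The 12 h arrays lay just under those of 0 h, and those of 48 h lay well below both. The change was -0.24 ± 0.11 at 12 h, which did not pass (adjusted p = 0.179), and -1.41 ± 0.11 at 48 h (adjusted p = 3.45e-05). The second Lmnb2 probe, ILMN_2534929, was detected on 1 array, with signals between 107.6 and 138.0 over all 6.

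Lbr encodes the lamin B receptor, a membrane protein that binds B-type lamins and heterochromatin and also has sterol reductase activity. ILMN_2733120 read 12.82 and 13.05 at 0 h, then 13.05 and 12.94 at 12 h and finally 11.92 and 11.58 at 48 h. The 0 h and 12 h arrays overlapped, and both 48 h arrays were lower. The change was 0.056 ± 0.13 at 12 h (adjusted p = 0.829), and -1.19 ± 0.13 at 48 h (adjusted p = 0.000204). Between 12 h and 48 h the level changed by -1.24 ± 0.13 (adjusted p = 0.000297). At 12 h the sign turned under scaling to the 75th percentile (-0.0012) and without 0 h replicate 1 (-0.057), so no direction is given there. The dim second probe, ILMN_2509988, was detected on 1 array each of 0 h and 12 h, with signals of 132, 145, 143, 126, 106 and 104 in order of time.

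Tmpo encodes the LAP2 proteins, which carry the LEM domain that binds the chromatin protein BAF. Its 3 tested probes fell alike at 48 h, by 1.04 to 1.12, with 2 of them on one annotated transcript and the third on another. ILMN_1220051 (probe 1) read 10.51 and 10.13 at 0 h, then 10.22 and 10.13 at 12 h and finally 9.32 and 9.09 at 48 h. The 0 h and 12 h arrays overlapped and the 48 h arrays were lower than both. Its change was -0.15 ± 0.14 at 12 h (adjusted p = 0.545) and -1.11 ± 0.14 at 48 h (adjusted p = 0.000356). None of the 3 passed at 12 h, with changes from -0.16 to -0.096. The sign at 12 h turned for probe 1 without 0 h replicate 1 (0.041) and for probe 3 without 12 h replicate 2 (0.097). The remaining Tmpo probe, ILMN_1213625, was detected on 1 array.

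Emd encodes emerin, another LEM-domain protein, and showed the smallest 48 h changes of the group. The signals of its 2 probes were low, from 242 to 720 before normalization, where background makes a change smaller. ILMN_2630593 (probe 1) read 9.18 and 9.12 at 0 h, then 8.97 and 8.88 at 12 h and finally 8.72 and 8.73 at 48 h. The 3 time points did not overlap. It fell by 0.43 ± 0.087 at 48 h (adjusted p = 0.00422), and this call was lost under scaling to the 75th percentile. ILMN_2745259 (probe 2) read 8.60 and 8.22 at 0 h, then 8.45 and 8.40 at 12 h and finally 8.20 and 8.18 at 48 h. Its 0 h arrays were far apart and enclosed both 12 h values. The change of -0.22 ± 0.13 at 48 h did not pass (adjusted p = 0.187), but without 0 h replicate 2 it was -0.42 and passed (adjusted p = 0.0244). At 12 h the probe changed by 0.012, and the sign turned in 3 of the alternatives.

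Hmgb2 encodes an HMG-box protein that is most abundant in dividing cells and in thymus and testis. ILMN_3156604, its only probe, read 10.58 and 11.05 at 0 h, then 10.35 and 9.96 at 12 h and finally 8.82 and 8.63 at 48 h. The 3 time points did not overlap, and the gap between 12 h and 48 h was the wider one. The change at 48 h was -2.09 ± 0.18, a signal 4.27-fold lower (adjusted p = 5.21e-05), and it was -1.95 and -2.24 within the 2 array sets. The change at 12 h was -0.67 ± 0.18 (adjusted p = 0.0429). This 12 h call was lost without 0 h replicate 2 (-0.43, adjusted p = 0.227), without 12 h replicate 2 (-0.47, adjusted p = 0.204), after normexp background correction (adjusted p = 0.0634), and under scaling to the 75th percentile (adjusted p = 0.170). With the array set as a block its adjusted p was 2.45e-05.

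Hmgb1, the closest relative of Hmgb2, gave no usable level. The array holds 1 probe for it, ILMN_1242911, with signals of 144 and 95.2 at 0 h, then 104 and 116 at 12 h and finally 103 and 121 at 48 h. It was detected only on 0 h replicate 1, and neither a fold change nor a comparison with Hmgb2 is given.

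**Figure D2:**
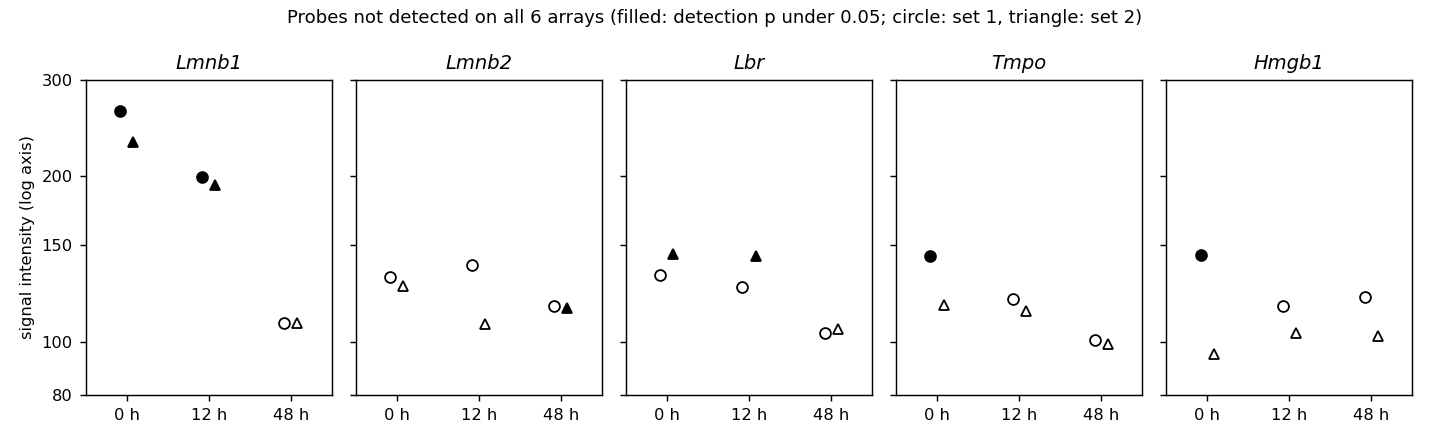
Signal intensity, on a log axis and without normalization, of the 5 probes not detected on all arrays, on each of the 6 arrays. Filled symbols mark a detection p under 0.05. The Lmnb1 probe goes from 263 and 231 at 0 h to 108.2 and 108.3 at 48 h, while the only Hmgb1 probe stays between 95.2 and 144.

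**Figure D3:**
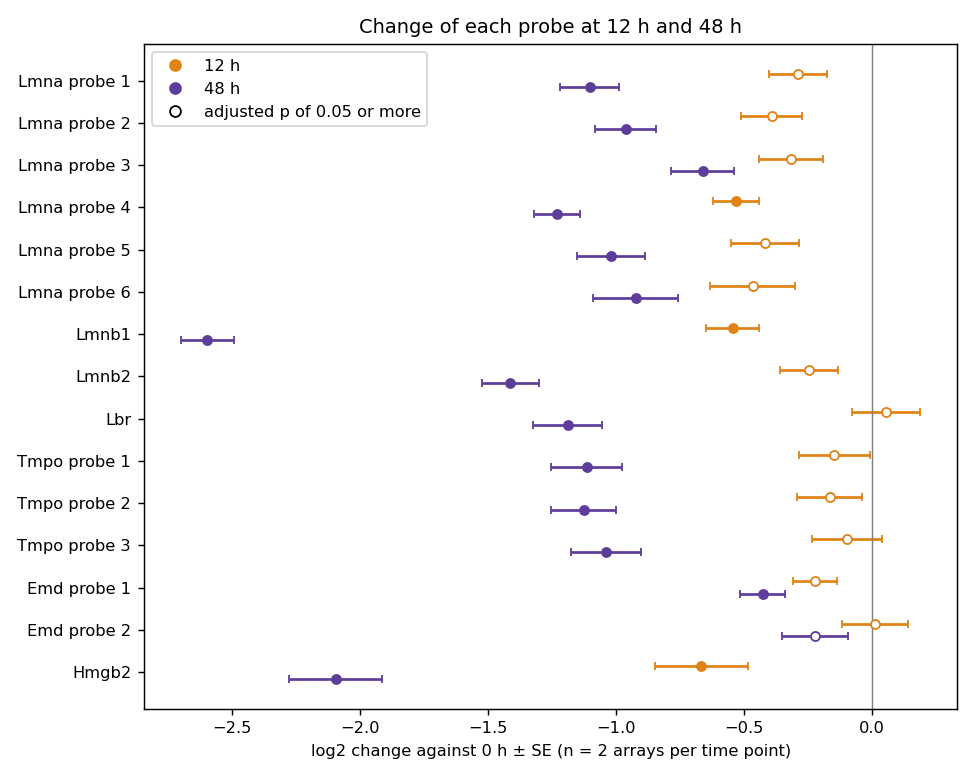
Log2 change against 0 h (± SE, 2 arrays per time point) of the 15 tested probes at 12 h and 48 h, with open symbols where the adjusted p was 0.05 or more. At 48 h the changes run from -2.60 for Lmnb1 to -0.22 for Emd probe 2, and at 12 h only 3 symbols are filled.

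Set in order, the largest change at 48 h was that of Lmnb1 (-2.60), followed by Hmgb2 (-2.09), Lmnb2 (-1.41), Lbr (-1.19), Tmpo (-1.12 to -1.04, median -1.11), Lmna (-1.23 to -0.66, median -0.99) and Emd (-0.43 and -0.22). The Lmna probes span the values of Lbr and Tmpo. Lbr and Tmpo probes 1 and 2 differ by less than their standard errors, and Tmpo probe 3 differs from Lbr by slightly more. This stretch of the order is thus not settled. The signals carry background, which makes the change of a low-signal probe smaller. Across alternatives that kept all arrays, the 48 h change reached -1.42 for Lmna probe 1, -1.38 for Tmpo probe 3 and -1.23 for Lbr. It reached -0.49 and -0.27 for the 2 Emd probes. Differences between members were also taken within each array, on the brightest probe of each gene, which cancels any scale factor of the array. From 0 h to 48 h the log2 difference Lmnb1 minus Lmna changed by -1.93 (SD 0.089, on Lmna probe 3, the least changed of the 6), Lmnb1 minus Lmnb2 by -1.18 (SD 0.13) and Lmnb1 minus Lbr by -1.41 (SD 0.28). In each case the arrays of 0 h and 48 h were separated, and the exact two-sided permutation p of 0.333 is the smallest that 2 arrays against 2 can give. These are unequal changes and do not show that any of the genes was constant.

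The members also varied, as point values, in how much of their 48 h change was present at 12 h. For the 6 Lmna probes the 12 h change amounted to 26.1% to 50.4% of the 48 h change. It was 31.8% for Hmgb2, 20.9% for Lmnb1, 17.3% for Lmnb2, 9.26% to 14.6% for Tmpo and -4.71% for Lbr. For Emd it was 52.1% on probe 1, the highest of the 15 probes, and -5.38% on probe 2, neither of which passed at 12 h. The 48 h change of Emd probe 2 did not pass either. Both parts of each ratio share the 0 h arrays, and the differences between these shares were not tested. The spread is wide where arrays disagree, as for Lmna probe 5 with 63.9% in one array set and 20.4% in the other.

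**Figure D4:**
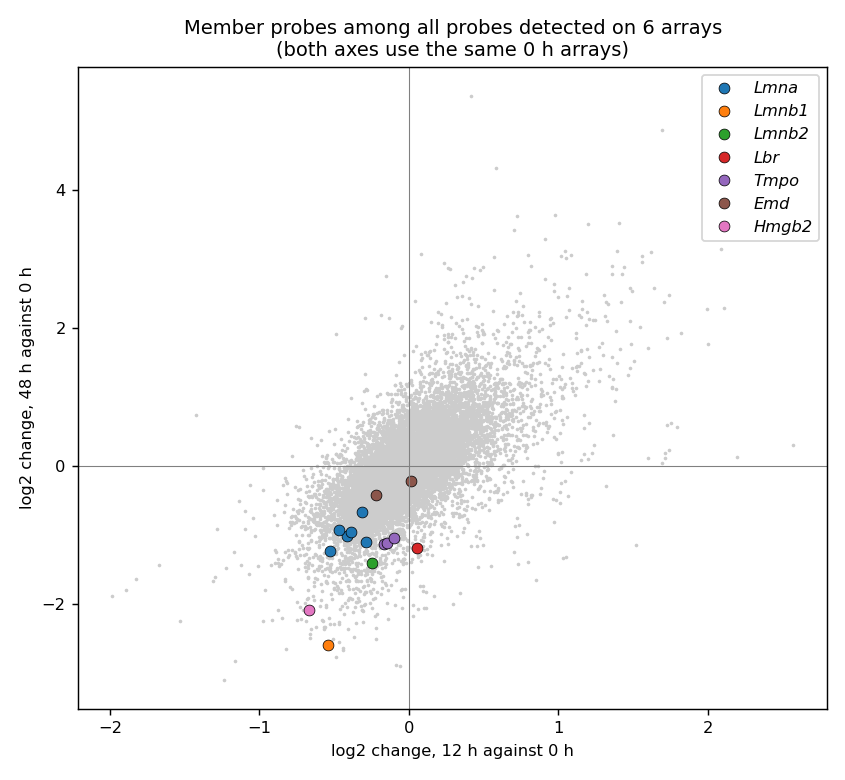
Log2 change at 48 h against that at 12 h for all 14091 tested probes in grey, with the 15 probes of the 7 genes in colour. Both axes use the same 0 h arrays, so part of the slope of the cloud is shared error. Lmnb1 (-0.54 and -2.60) and Hmgb2 (-0.67 and -2.09) lie at the lower left edge, and Lbr (0.056 and -1.19) lies to the right of the other members that fell by as much.

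The genes whose pattern over the 6 arrays was closest to each member were found by distance, with each probe centred on its 0 h mean and 1 probe for each of 8141 other named genes. Nearest to Lmnb1 were Rad54l, which acts in homologous recombination, the anaphase activator Cdc20, Ydjc, the cyclin gene Ccne2 and the condensin subunit gene Ncapd2, with 48 h changes from -2.66 to -2.33. For Hmgb2 they were the transcription factor gene E2f2, the nuclear pore gene Nup85, Psmc3ip, the replication factor gene Mcm10 and Ncapd2. Lmnb2 was closest to Haus5, of the augmin complex, the histone acetyltransferase gene Hat1, Cdca7, Tedc1 and the kinetochore gene Ska3. For Lbr they were the intermediate filament gene Vim, Sdf2l1, Efcab11 and the histone H2A genes H2ac7 and H2ac13, with 12 h changes from -0.038 to 0.15 and 48 h changes from -1.35 to -1.09. Tmpo was closest to Cd72, Rtel1, the importin gene Kpnb1, Cdc7 and Olfm1, Lmna to Nrde2, Fubp1, Eef1akmt1, Bcl7a and Abhd2, and Emd to Drg2, Galnt10, Ltbr, Keap1 and C1qbp. Among the members themselves the closest pair was Emd and Lmna (distance 0.46 on the log2 scale), then Lbr and Tmpo (0.53), and Hmgb2 was the member nearest to Lmnb1 (0.88). The first pair rests on Lmna probe 3. The other 5 Lmna probes lay 0.83 to 1.22 from Emd, and each was nearer to Tmpo (0.27 to 0.77).

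The start regions of the genes were read for short motifs known from promoters of cell cycle genes. RefSeq windows of the 250 bases before a start site (GRCm38.p6) were at hand for 7 of the 8 genes, with 1 or 2 start sites each and none for Lmnb1. On either strand, CCAAT was in a window of 6 of the 7 genes, all but Lmnb2, and in a window of 37.5% of all genes (33.8% of all windows) and of 16 of 21 proliferation genes. The letters TTTGAA, a form of the CHR element, were in windows of 3 of the 7, Hmgb2, Lbr and Tmpo, and of 18.3% of all genes (16% of windows) and 5 of 21 proliferation genes. TTCCCGC, the core of an E2F site, was found for Tmpo alone, with 4.38% of all genes (3.82% of windows). TTCGAA (1.55% of genes, 1.34% of windows) and TTTGGCGC (0.485% and 0.417%) were found for none of the 7. The motifs share no letters in these windows, and a match is no evidence of binding. The windows of the 3 genes with TTTGAA are shown 5′ to 3′ on the strand of the gene, with the motif letters in capitals. TTCAAA is TTTGAA on the opposite strand.
Hmgb2: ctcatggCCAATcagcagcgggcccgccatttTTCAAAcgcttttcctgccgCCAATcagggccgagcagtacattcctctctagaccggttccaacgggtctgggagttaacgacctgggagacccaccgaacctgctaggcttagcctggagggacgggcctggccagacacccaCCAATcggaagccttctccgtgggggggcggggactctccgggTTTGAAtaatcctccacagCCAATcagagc
Lbr: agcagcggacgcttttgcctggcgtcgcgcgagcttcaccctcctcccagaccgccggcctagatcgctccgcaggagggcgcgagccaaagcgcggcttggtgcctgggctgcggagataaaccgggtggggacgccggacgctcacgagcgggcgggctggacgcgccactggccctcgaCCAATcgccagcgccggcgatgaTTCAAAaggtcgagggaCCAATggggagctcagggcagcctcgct
Tmpo: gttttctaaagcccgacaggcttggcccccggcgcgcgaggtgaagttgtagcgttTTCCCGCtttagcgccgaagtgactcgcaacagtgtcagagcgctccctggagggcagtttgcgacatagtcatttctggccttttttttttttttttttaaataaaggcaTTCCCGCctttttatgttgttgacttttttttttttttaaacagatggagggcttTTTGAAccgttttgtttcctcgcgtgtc
In the Hmgb2 window, chr8:57511593-57511842 on the plus strand, 4 CCAAT and 2 TTTGAA matches lie before the start. The Lbr window, chr1:181842402-181842651 on the minus strand, holds 2 CCAAT and 1 TTTGAA. The Tmpo window is that of the second start site, chr10:91170551-91170800 on the minus strand, with 2 TTCCCGC and 1 TTTGAA, and the 2 CCAAT of Tmpo are in the window of the other start site. Beside these windows stand 48 h changes of -2.09 for Hmgb2, -1.19 for Lbr and -1.12 to -1.04 for Tmpo. Lmnb2, with no match to any of the motifs, changed by -1.41. Lmna and Emd, with CCAAT alone, changed by -1.23 to -0.66 and by -0.43 and -0.22. A link between motifs and changes was not tested. Hmgb1, with 3 CCAAT in 1 window, had no measured change to set beside them.

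Other genes of the nuclear envelope were called in both directions, with counts to be read against the 25.9% of all tested probes that fell and the 25% that rose. Of the 13 tested genes of the inner nuclear membrane and the LINC complex, which couples the nucleus to the cytoskeleton, 6 fell, 2 rose and 5 did not pass at 48 h, with a median of -0.20, and 4 rose with the array set as a block. Nrm, which encodes the membrane protein nurim, fell by 2.05 ± 0.11 (adjusted p = 7.08e-06), and Syne3, a nesprin gene, fell by 1.63 ± 0.18. Tmem201, Tor1aip1 and Banf1, which encodes the BAF protein that LEM domains bind, fell by 1.05, 1.01 and 0.73, and Sun2 by 0.31, where its other probe did not pass. Syne1, another nesprin gene, rose by 1.83 ± 0.21 (adjusted p = 0.000229), and Lemd2, a LEM-domain gene like Tmpo and Emd, rose by 0.93 ± 0.088. Only 1 of the 7 Syne1 probes was detected on all arrays. Of the 6 genes that process prelamin, Zmpste24, the protease that cleaves prelamin A, fell by 0.62 and Rce1 by 0.34, and the other 4 did not pass (list median -0.26). The prelamin count was 1 when 0 h replicate 1, 0 h replicate 2 or 48 h replicate 1 was left out and 4 with the block.

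The other HMG genes were mixed, while more genes of the SET complex and of heterochromatin fell than rose. Of all tested probes 25.9% fell and 25% rose at 48 h. Among 9 tested genes of other HMG proteins 4 fell, 2 rose and 3 did not pass (median -0.34). The nucleosome-binding genes Hmgn2, Hmgn5 and Hmgn1 fell by 1.40, 1.03 and 0.53 and Ubtf, a ribosomal RNA gene factor, by 0.91, while Hmgxb3 and Hmg20b rose by 0.47 and 0.44. Without 0 h replicate 1 or without 48 h replicate 1, 1 gene of the list rose. Of 5 genes of the SET complex, in which HMGB2 takes part, 4 fell (Set by 1.06, Nme1 by 1.04, Apex1 by 0.95 and Trex1 by 0.50) and Anp32a did not pass. Of 9 genes of heterochromatin that is linked to the lamina 6 fell and 0 rose, with a median of -1.02. Uhrf1, which directs maintenance of DNA methylation, fell by 2.26 ± 0.12, Cbx5, which encodes the LBR partner HP1 alpha, by 1.46, and Dnmt1 by 1.19. Trim28 fell by 1.14, Cbx3 by 1.02 and Hdac3 by 0.49. The second Cbx3 probe did not pass. In the deposited normalized table alone, fewer genes of these lists and of the nuclear envelope lists passed at 48 h. There 2 heterochromatin genes and 0 SET complex genes fell, and of the other HMG genes 1 fell and 0 rose. Of the inner nuclear membrane and LINC complex genes 2 fell and 1 rose, and 0 prelamin genes fell.

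Proliferation markers, chosen with earlier results of these data known, also fell. All 21 tested fell at 48 h and 10 of them at 12 h, where 25.9% and 7.82% of all tested probes fell. The markers had medians of -2.07 and -0.34, beside -1.10 and -0.29 for the 15 member probes. Their 48 h changes ran from -2.50 for Rrm2, a ribonucleotide reductase gene, to -0.70 for Pcna, the replication clamp gene. Hmgb2 (-2.09) lay near their median, Lmnb1 (-2.60) beyond the lower end of the range by less than the standard errors, and both Emd probes and Lmna probe 3 (-0.66) above its upper end. The part of cell division in the change of the lamina genes was not tested.

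Because low lamin B1 and HMGB2 are used as marks of senescence, other genes used in the same way were listed beside them. The counts of these lists stand beside the 25% of all tested probes that rose and the 25.9% that fell at 48 h. Of 8 tested arrest genes 4 rose, 2 fell and 2 did not pass at 48 h (median 0.26). Cdkn1a encodes p21, an inhibitor of cyclin-dependent kinases. Its rise was 0.78 ± 0.13 at 12 h (adjusted p = 0.00809) and 1.37 ± 0.13 at 48 h (adjusted p = 9.39e-05). Glb1, which encodes the lysosomal beta-galactosidase, rose by 1.38 ± 0.088 at 48 h, on the 1 of its 4 probes that was tested. Cdkn2c and Rbl1 fell by 1.09 and 0.78, and Cdkn2a was detected on 1 array only and was not tested. Of 36 secreted factors on the array 14 were tested, and 4 rose and 1 fell at 48 h (median 0.12), a share of rises near that of all tested probes. With detection on 2 arrays or no filter 7 rose and 4 fell, and 3 fell without 48 h replicate 2. They were Cxcl2 with 2.48, Vegfa with 1.38, Mmp9 with 1.37 and Icam1 with 0.69, against Plaur with -1.01, while Il6, Il1a and Il1b were detected on no array. Of 6 tested genes of HMGB1 receptors and export, Ly96, Tlr4 and Cxcr4 rose by 0.84, 0.57 and 0.56, Tlr2 fell by 0.72 and 2 did not pass, while the array set block gave 3 falls. In the deposited normalized table alone, 1 arrest gene rose and 0 fell at 48 h. There 2 secreted factors rose and 0 fell, and 0 genes of HMGB1 receptors and export passed.

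**Figure D5:**
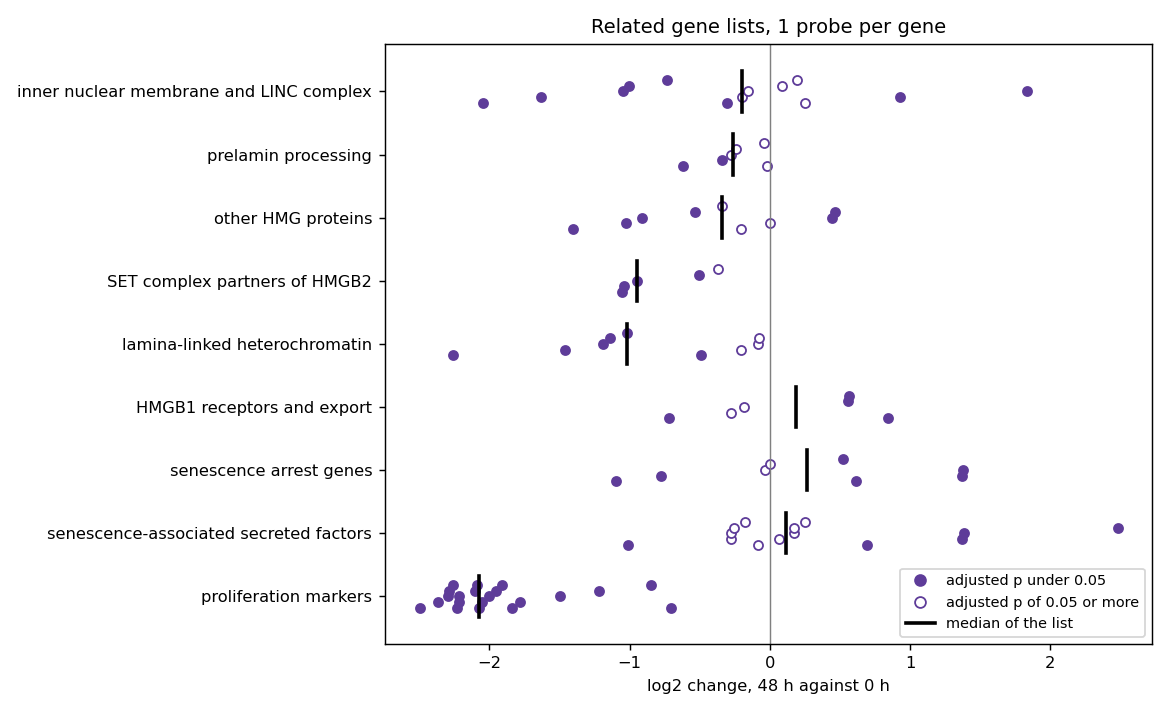
Log2 change at 48 h against 0 h of each tested gene of the related lists, 1 probe per gene, with the list median as a bar and open symbols where the adjusted p was 0.05 or more. The proliferation markers all lie between -2.50 and -0.70, and the nuclear envelope genes lie on both sides of 0, from -2.05 for Nrm to 1.83 for Syne1.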

How the data were processed

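RNA of RAW 264.7 cells was measured on 6 arrays, 2 each at 0, 12 and 48 h. The authors exported a signal intensity per probe, with no log step and no normalization between arrays, beside a detection p-value that compares the probe with the array's negative controls. A second deposited table holds log2 values after quantile normalization, done separately in 2 sets of 3 arrays, as its values show. The submitters' processing notes name R 3.0.2.

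From the intensities, the 14091 of 45281 probes whose detection p lay under 0.05 on each of the 6 arrays were log2 transformed and quantile normalized over all arrays. One model with a mean per time point, and 3 residual degrees of freedom, was fitted with limma 3.58.1 (R 4.3.3) and Benjamini-Hochberg adjustment over the 14091 probes. The number of arrays limits the precision. Symbols came from the platform annotation. In lists the brightest tested probe stood for a gene, and 158 of 176 listed genes were on the array. Members and lists were chosen with earlier results of these data known. The text names every member probe, the 5 nearest genes of each member, and called list genes, at most 4 per list outside the nuclear envelope, prelamin, HMG, SET complex and heterochromatin lists. Genes named outside this rule are Rrm2 and Pcna as ends of a range, Icam1, and genes named as not tested or not called, all chosen after their values were seen. Other settings were 2 detection filters, normexp (offset 16), the deposited log2 table, 75th percentile scaling, blocks for replicate number and array set, 1 probe per gene, and each array left out. Other rules were a fold change of at least 2 alone and a t-test with Benjamini-Hochberg adjustment. The fit was also tested on simulated data, and the outcome is not given here.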

Additional observations from a re-analysis of the deposited data

Results flagged for a closer look

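Lbr was singled out because its 12 h and 48 h changes against 0 h differed in sign. The 12 h change of 0.056 did not pass and turned sign in 2 alternatives, so no direction is given there. At 48 h the Lbr change was -1.19, and the tested difference between both time points was -1.24 (adjusted p = 0.000297). Emd probe 2 had the same signs (0.012 and -0.22), and neither of its changes passed.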

How the results depend on the processing

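The 48 h call of Lmnb1 held under every alternative run, and those of Lmnb2, Lbr and Hmgb2 under all but the t-test (adjusted p = 0.0560, 0.0901 and 0.0657). With single arrays left out, the 48 h change ran from -2.66 to -2.52 for Lmnb1 and from -2.31 to -1.87 for Hmgb2. It ran from -1.53 to -1.30 for Lmnb2 and from -1.36 to -1.02 for Lbr. The 12 h calls did not hold in this way. Of the 3 member probes called at 12 h, scaling to the 75th percentile left 0 (577 of all probes in place of 2332, and 3039 in place of 5319 from 12 h to 48 h). The deposited table alone gave 0, 7 and 2 member probes at 12 h, 48 h and from 12 h to 48 h, and 0, 796 and 169 of all probes, where limma passed 4453 at an unadjusted p under 0.05 at 12 h on the values used here. With the array set as a block, 9 member probes and 5228 of all probes passed at 12 h, and in the deposited table with that block, a setting added after seeing the data, 10 and 5107. The cause of these differences was not tested. With 1 probe per gene, which leaves 7 members, 7 passed at 48 h and 5 from 12 h to 48 h. Of all probes, a fold change of at least 2 alone was met by 163, 1373 and 742, and the t-test after Benjamini-Hochberg adjustment by 0, 2000 and 194. Of the 15 member probes that test passed 0, 4 and 0. With single arrays left out, 1 to 4 member probes and 724 to 2264 of all probes passed at 12 h. Lmnb1 minus Lmna changed by -2.07 at 48 h after normexp, and with single arrays left out by -0.43 to -0.022 at 12 h and -2.06 to -1.83 at 48 h.

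Signs that turned were all at 12 h and of probes that did not pass. They were Lbr with -0.0012 under 75th percentile scaling and -0.057 without 0 h replicate 1, and Tmpo with 0.041 (probe 1, without 0 h replicate 1) and 0.097 (probe 3, without 12 h replicate 2). Emd probe 2 gave -0.012 under that scaling, -0.18 without 0 h replicate 2 and -0.017 without 12 h replicate 1. With single arrays left out these 12 h changes ran from -0.057 to 0.17 for Lbr, -0.34 to 0.041 and -0.29 to 0.097 for Tmpo probes 1 and 3, and -0.18 to 0.20 for Emd probe 2.

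Arrays with the same replicate number deviated in opposite directions at 0 h and 12 h (r = -0.55) and at 0 h and 48 h (r = -0.56) and together at 12 h and 48 h (r = 0.65), so the numbers do not pair the arrays. With the replicate number as a block, Hmgb2 lost its 12 h call (adjusted p = 0.0806). Signal over background limits the 5 dim probes, of which only 1 of Lmnb1 could be bounded.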

Other observations

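The macrophage markers, which are outside the comparisons of the lamina genes, moved in both directions. Of the 8 markers tested, 4 rose at 48 h, where 25% of all tested probes rose and 25.9% fell. Adgre1 rose by 1.70, Lyz2 by 1.11, Itgam by 0.84 and Tyrobp by 0.77, while Csf1r fell by 0.88 and Cd14 by 0.48. Tyrobp, Cd14, Ccl4 and Ccl3 were named after their values were seen. Among the secreted factors, Ccl4 and Ccl3 rose by 1.18 and 1.09 at 12 h and did not pass at 48 h, with changes of 0.17 and -0.086.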
